A study of Mus musculus with 2 samples.

Results

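Hypoxia-high tumour cells were the 1385 of 19796 gated MC38 tumour cells with the most RNA from Car9, Egln3, P4ha2, Ndrg1 and Ero1a, genes that are switched on when oxygen is low. Single-cell RNA libraries came from subcutaneous tumours of MC38, a mouse line labelled as colon adenocarcinoma, in C57BL/6 mice labelled WT. The line had been made into stable pools, by lentivirus, that carried either SPP1 or a control vector. Every mouse was also given anti-PD-1, which blocks a brake on T cells, at 10 mg/kg, 2 times a week from day 7 for 2 weeks, so no group without the antibody was analysed here. Each group was 1 library, and the tumours behind it are not told apart in the labels.

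The gate kept cells with at least 3000 unique molecular identifiers (UMIs, counts of single RNA molecules), at most 15% mitochondrial UMIs, at least 5 UMIs over Hmga2, Sox9, Tafa1 and Hoxa9, and none of Ptprc, the pan-leukocyte gene. The library labelled vector gave 9605 such cells and that labelled SPP1 10191. The hypoxia-high cells were the top 7% of both libraries pooled, 811 and 574 cells, by UMIs of the 5 genes per 10000 UMIs of the cell. The other 18411 gated cells served as the comparison.

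Cells sense oxygen through prolyl hydroxylases of the Egln family, which use oxygen to mark the HIF-alpha proteins for destruction by the VHL ubiquitin ligase. In low oxygen HIF-alpha is spared, pairs with Arnt and binds short DNA elements near genes for glucose use, acid export, blood vessel growth, collagen processing and mitochondrial turnover. In solid tumours such cells usually lie far from blood vessels. Oxygen itself was not measured here, so the name rests on RNA alone.

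The values that chose the cells are given as a description. The lowest score among them was 9.99 per 10000 and the highest score left out was also 9.99, against a median of 3.30 over all gated cells, quartiles of 1.80 and 5.59, and a highest score of 69.1. There was no gap at the threshold: 314 of the chosen cells lay within 1 unit above it and 416 other cells within 1 unit below. The set is thus a range of a continuous score. The score rests on few UMIs per cell, so the lack of a gap cannot tell whether a separate type lies among them. Chosen cells carried a median of 16 UMIs of the 5 genes and other cells 4, and 1369 gated cells carried none.

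**Figure D1:**
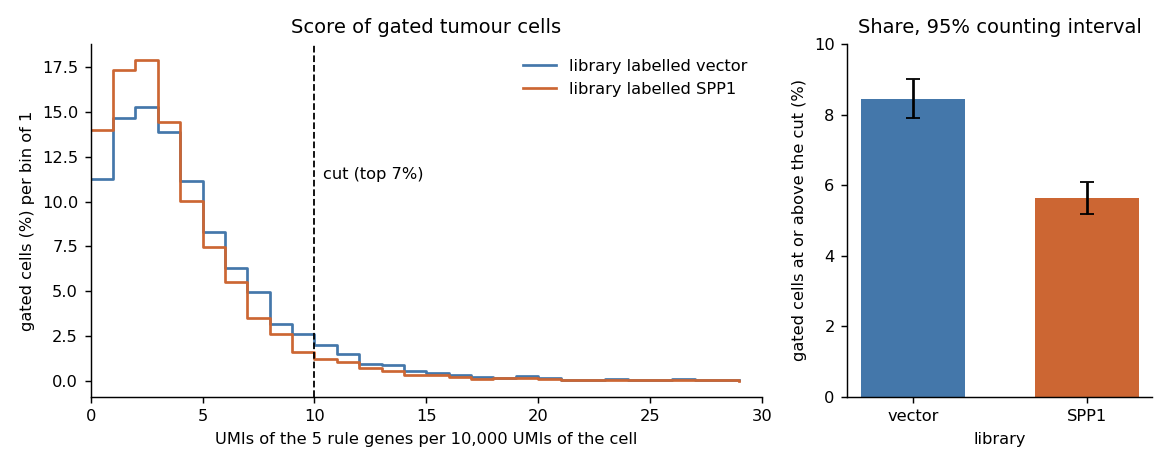
Left, the share of gated cells (%) in bins of 1 unit of the score, the UMIs of the 5 rule genes per 10,000 UMIs of the cell, for each library, with the threshold dashed (scores above 30 are not drawn). Right, the share of gated cells at or above the threshold with 95% exact binomial intervals, 8.44% in the library labelled vector and 5.63% in that labelled SPP1. The scores tail off smoothly across the threshold in both libraries.

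Ndrg1, a stress-responsive gene of the N-myc downstream-regulated family, supplied 64.9% of the rule's UMIs in the chosen cells and 69.7% in the others. Its level, in UMIs per 1000000 UMIs of the cell set (CPM), was 959 in chosen against 251 in other cells of the library labelled vector and 1032 against 234 in that labelled SPP1. Ero1a, the oxidase that drives disulphide bond formation in the endoplasmic reticulum, stood at 311 against 58.4 CPM and 260 against 51.3 CPM. Egln3, an oxygen sensor that is itself induced by HIF, stood at 127 against 25.1 CPM and 118 against 21.0 CPM. P4ha2, a collagen prolyl hydroxylase subunit, stood at 105 against 27.0 CPM and 79.96 against 22.9 CPM. Car9, the carbonic anhydrase that exports acid, was scarce: 29.1 against 2.99 CPM and 23.0 against 2.35 CPM. Of the 1385 cells, 123 had a UMI of all 5 genes, 396 of 4, 440 of 3, 346 of 2 and 80 of 1 only. Levels are not per gene length and are not compared between genes.

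When the top 7% was drawn from the other 4 genes, the gene left out could be read without having chosen the cells. Ndrg1 was then at 624 against 278 CPM in the library labelled vector and 654 against 256 CPM in that labelled SPP1, but only 730 of the 1385 cells (52.7%) were the same. For the other left-out genes 83.9% to 97.5% of cells were the same, and the log2 ratio lay between 1.49 (P4ha2) and 2.84 (Car9). Each of the 5 genes was therefore higher in cells picked by the other 4, in both libraries.

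Depth differed little. The median was 12146 and 11561 UMIs in hypoxia-high cells of the libraries labelled vector and SPP1 and 13028 and 12290 in other gated cells, with 1.52% and 1.58% against 1.62% and 1.71% mitochondrial UMIs. The epithelial markers Epcam, Krt20 and Cdx2 had no UMI in hypoxia-high cells. The 9 epithelial markers summed to 3.52 and 3.08 CPM there and to 2.44 and 2.09 CPM in other gated cells. Krt14, a keratin gene outside those 9, reached at least 5 CPM over all gated cells. Its log2 ratios of hypoxia-high over other cells were 0.00 and 0.25. The mesenchymal filament gene Vim stood at 3826 and 3693 CPM in hypoxia-high cells. The 2 libraries shared 93 barcodes, and 10 hypoxia-high cells carried 1 of them. Spp1, the gene named on the labels, went against the labels: it stood at 148 CPM in other gated cells labelled vector and at 131 CPM in those labelled SPP1. Whether the transgene is counted under this gene is not given in the sources used here, so a group is named below as its library is labelled.

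Promoters of the rule genes and of the first 3 genes outside the rule, ranked by the smaller of the 2 libraries' ratios, are shown because the core letters that HIF binds are ACGTG and GCGTG. Sequences are the 250 bases before the annotated start, 5′ to 3′ on the gene's strand, from RefSeq on GRCm38.p6, with capitals for either motif on either strand (a motif on the other strand reads CACGT or CACGC, and overlapping motifs run together).
Car9: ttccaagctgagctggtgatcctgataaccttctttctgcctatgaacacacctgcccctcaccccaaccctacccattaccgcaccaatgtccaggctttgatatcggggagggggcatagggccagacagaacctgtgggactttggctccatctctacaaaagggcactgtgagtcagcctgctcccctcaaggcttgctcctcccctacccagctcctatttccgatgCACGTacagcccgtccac
Egln3: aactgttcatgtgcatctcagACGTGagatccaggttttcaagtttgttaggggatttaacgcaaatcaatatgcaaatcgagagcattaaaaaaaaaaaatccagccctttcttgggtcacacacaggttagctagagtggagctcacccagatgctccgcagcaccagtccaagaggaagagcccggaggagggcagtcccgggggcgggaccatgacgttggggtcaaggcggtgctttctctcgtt
P4ha2: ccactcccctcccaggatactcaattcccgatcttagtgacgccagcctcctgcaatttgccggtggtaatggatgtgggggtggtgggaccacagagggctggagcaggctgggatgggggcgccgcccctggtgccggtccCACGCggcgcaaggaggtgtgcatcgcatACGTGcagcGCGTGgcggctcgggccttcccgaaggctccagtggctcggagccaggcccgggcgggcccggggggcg
Ero1a: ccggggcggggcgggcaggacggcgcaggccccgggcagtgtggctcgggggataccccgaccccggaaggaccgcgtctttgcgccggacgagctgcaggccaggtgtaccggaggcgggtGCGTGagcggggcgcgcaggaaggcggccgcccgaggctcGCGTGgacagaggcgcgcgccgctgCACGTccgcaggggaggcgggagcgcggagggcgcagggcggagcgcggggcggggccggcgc
Bnip3: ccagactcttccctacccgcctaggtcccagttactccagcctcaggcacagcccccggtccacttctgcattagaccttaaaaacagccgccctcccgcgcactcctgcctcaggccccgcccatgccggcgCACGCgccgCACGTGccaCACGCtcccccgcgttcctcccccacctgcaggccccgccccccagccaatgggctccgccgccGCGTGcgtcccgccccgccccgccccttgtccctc
Higd1a: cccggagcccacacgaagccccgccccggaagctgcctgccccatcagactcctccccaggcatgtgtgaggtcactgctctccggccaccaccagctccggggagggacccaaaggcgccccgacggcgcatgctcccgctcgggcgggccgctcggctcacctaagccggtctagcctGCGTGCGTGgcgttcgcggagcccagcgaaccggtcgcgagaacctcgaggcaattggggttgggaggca
Mt1: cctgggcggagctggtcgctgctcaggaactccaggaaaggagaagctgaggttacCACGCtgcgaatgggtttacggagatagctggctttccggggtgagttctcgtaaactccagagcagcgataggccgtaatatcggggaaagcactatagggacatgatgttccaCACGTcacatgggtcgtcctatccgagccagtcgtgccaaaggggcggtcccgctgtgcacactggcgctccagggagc
These windows lie at chr4:43506776-43507025 (plus strand) for Car9, chr12:54203875-54204124 (minus strand) for Egln3, chr11:54100674-54100923 (plus strand) for P4ha2, chr14:45318573-45318822 (minus strand) for Ero1a, chr7:138909507-138909756 (minus strand) for Bnip3, chr9:121857797-121858046 (minus strand) for Higd1a and chr8:94178839-94179088 (plus strand) for Mt1. Ndrg1 had no entry.

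Each of the 4 rule genes in the table held ACGTG, which 16.6% of all 32851 promoter windows hold, and 22.4% of the windows of measured genes. In Car9 the motif began 18 bases before the start, in Egln3 229 bases before it. Bnip3 held 2 overlapping copies of ACGTG on opposite strands and 3 of GCGTG, and Higd1a held 2 of GCGTG. Of the 20 genes outside the rule with the largest ratios in both libraries, 17 were in the table and 15 had either motif in a window. Among the 12 lowest genes 7 were in the table and 4 had either motif. Counted in the same way per gene, 41.5% of the 27025 genes in the table and 64.0% of the 7888 measured genes in it had either motif in a window. A match is a description of these letters only.

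Glucose handling was higher throughout in hypoxia-high cells. Of 21 genes fixed for glucose uptake and glycolysis, 17 were measured (at least 5 CPM over all gated cells), and 15 were at least 1.5-fold higher than in the other gated cells in both libraries. None was lower. The median log2 ratio of the list was 0.78 in the library labelled vector and 0.88 in that labelled SPP1, against medians of -0.04 and -0.04 over all 10106 measured genes. Of these genes 93 (0.92%) were higher by that fold in both libraries and 77 (0.762%) were lower. With 1 library per group there is no test across samples, cells are not replicates, and every interval given is at 95% and covers counting error only.

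The glucose transporter Slc2a1 stood at 158 CPM in hypoxia-high and 50.5 CPM in other cells of the library labelled vector, and at 130 and 54.4 CPM in that labelled SPP1 (log2 1.64, 1.57 to 1.72, and 1.25, 1.16 to 1.35). Pdk1, the kinase that keeps pyruvate out of mitochondria, stood at 71.7 against 29.6 CPM and 74.1 against 25.7 CPM. Pgk1, the first ATP-yielding enzyme of the pathway, stood at 676 against 300.0 CPM and 715 against 293 CPM (log2 1.17 and 1.29). These genes were between 2-fold and 4-fold higher in both libraries. Aldoa, an aldolase that splits the 6-carbon sugar, had log2 ratios of 1.07 and 1.00, and Gpi1, the isomerase acting after hexokinase, 1.06 and 1.00. Ldha, which turns pyruvate into lactate, stood at 918 against 529 CPM and 881 against 474 CPM. Slc16a3, the lactate exporter, was a weakly expressed gene at 23.5 against 13.0 CPM and 26.9 against 13.5 CPM. The measured genes that missed the fold in at least 1 library were Pkm, at log2 0.53 and 0.71, and Pfkfb4, at 0.26 and 0.21.

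The neighbouring glycogen list split. Pgm1, which links glucose 6-phosphate to glycogen, Gys1, the synthase, and Gbe1, the branching enzyme, were past the fold in both libraries, 3 of 7 measured genes. Gbe1 in the library labelled SPP1 was under the fold, at log2 0.55, when the top 10% was taken. It was also under it, at 0.50, with the score from cells thinned to 3000 UMIs each. Pgm1 stood at 122 against 55.6 CPM and 115 against 56.5 CPM. The other 4 measured genes, Ugp2, Gyg, Pgm2 and Pygb, lay between log2 -0.21 and 0.18. Bsg, the chaperone of lactate transporters, was the highest of 5 measured genes for acid and bicarbonate transport at 0.57 and 0.61, and none of the 5 passed the fold in both libraries.

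Among 25 textbook HIF targets outside glycolysis 20 were measured, and 10 were past the fold in both libraries with none lower, at medians of 0.66 and 0.58. Bnip3, a mitophagy receptor, stood at 546 against 138 CPM in the library labelled vector and 468 against 121 CPM in that labelled SPP1 (log2 1.98 and 1.95). The 2 libraries gave nearly the same ratio. Higd1a, a mitochondrial inner membrane protein, stood at 404 against 141 CPM and 403 against 125 CPM. Ankrd37, an ankyrin repeat protein, stood at 105 against 26.0 CPM and 100.4 against 36.2 CPM. Ak4, a mitochondrial adenylate kinase, had log2 ratios of 1.40 and 1.51, and Fam162a 1.23 and 1.24. Vegfa, the main angiogenic factor, stood at 526 against 265 CPM and 580 against 296 CPM. Ddit4, an inhibitor of mTORC1, Mif, Bnip3l and Mxi1 completed the 10. Ddit4 in the library labelled vector was under the fold, at 0.56, when Ndrg1 was left out of the score. Not every target followed: Angptl4 stood at log2 -0.40 and -0.18 and Rora at -0.31 and -0.67. Adm, Stc2, Ndufa4l2, Apln and Cxcr4 were under 5 CPM over all gated cells and are not counted. Of these Apln, a vessel-active peptide, stood at 12.4 against 3.93 CPM and 6.82 against 3.19 CPM.

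**Figure D2:**
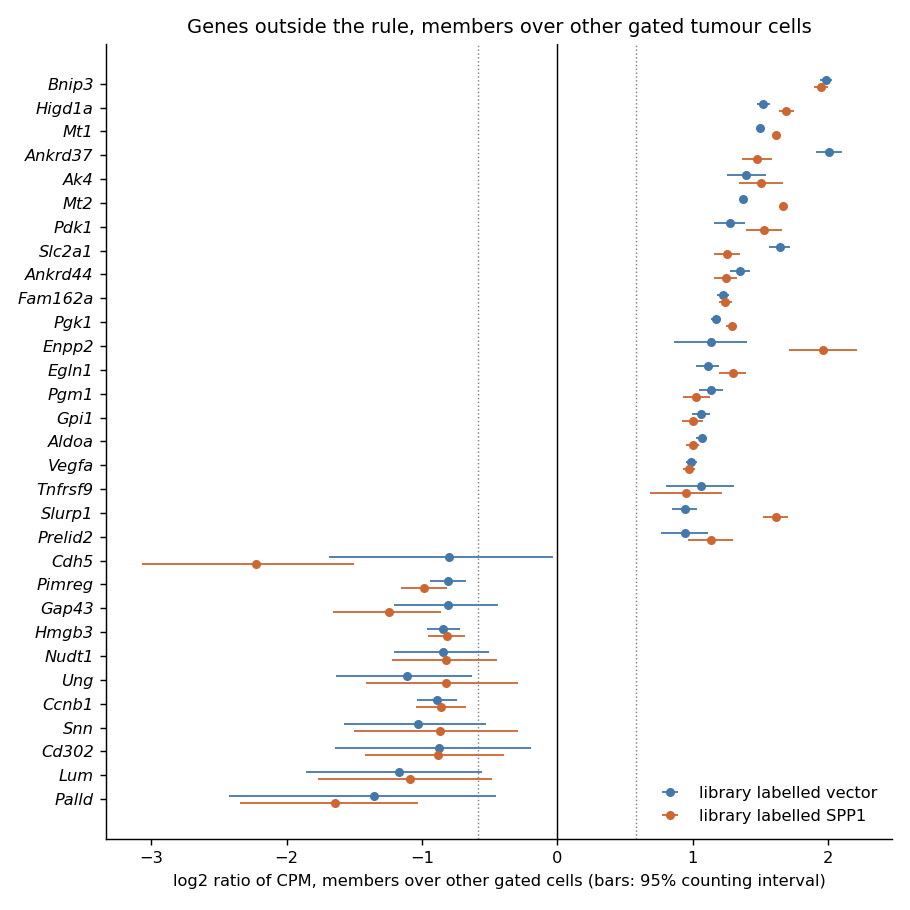
Log2 ratio of CPM, hypoxia-high (members) over other gated cells, for the 20 highest genes outside the rule and 11 of the 12 lowest, in each library (points) with 95% counting intervals (bars). Dotted lines mark 1.5-fold. Bnip3 heads the list at 1.98 and 1.95, and Palld stands at -1.35 and -1.65. Magea9 is left out because it had no UMI in hypoxia-high cells of the library labelled vector.

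The sensors and factors themselves differed less than their targets. Hif1a RNA stood at 242 against 201 CPM and 208 against 171 CPM, log2 0.26 and 0.28. Of 9 measured components of the pathway only Egln1, the main oxygen sensor and a HIF target, passed the fold, at 123 against 56.9 CPM and 125 against 50.7 CPM. Arnt, Vhl and Hif1an had log2 ratios between 0.15 and 0.32, while Elob and Eloc, the elongin subunits of the VHL complex, lay between -0.31 and -0.21. Epas1 and Hif3a, with at most 2 UMIs in hypoxia-high cells of either library, were not measured.

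Outside the fixed lists the highest genes included the metallothioneins, cysteine-rich proteins that bind zinc and copper. Mt1 stood at 4753 against 1683 CPM in the library labelled vector and 5054 against 1649 CPM in that labelled SPP1, and Mt2 at 4408 against 1702 CPM and 4247 against 1340 CPM. After each cell was thinned to 3000 UMIs, 96.8% and 97.7% of hypoxia-high cells, 88.6% and 88.1% of other gated cells and 71.1% and 76.2% of leukocytes outside the gate had a Mt1 UMI. The remaining genes among the 20 were Ankrd44 at log2 1.35 and 1.24, Enpp2, the enzyme autotaxin that makes lysophosphatidic acid, at 1.14 and 1.97, Tnfrsf9, the receptor 4-1BB, at 1.06 and 0.95, Slurp1 at 0.94 and 1.62, and Prelid2 at 0.94 and 1.13. With Ndrg1 left out of the score the ratio in the library labelled vector was 0.14 for Enpp2 and 0.03 for Slurp1, so neither call held there. Enpp2 and Tnfrsf9 were scarce, at 12.8 to 21.7 CPM and 14.5 to 17.5 CPM in hypoxia-high cells. Hmox1, haem oxygenase, stood at 17.6 against 6.31 CPM and 9.49 against 5.68 CPM. In the library labelled vector 34.6% of its UMIs in hypoxia-high cells came from 3 cells, and in the other library Hmox1 was under the fold, at log2 0.46, with Ero1a left out of the score.

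Collagen processing showed single genes and no shift of the list. Plod2, the lysyl hydroxylase for collagen telopeptides, stood at 303 against 150.0 CPM and 256 against 142 CPM and was 1 of 13 measured genes past the fold upwards. P4ha1, a collagen prolyl hydroxylase subunit like the rule gene P4ha2, had log2 ratios of 0.93 and 0.52. Loxl3, a lysyl oxidase, was past the fold downwards at -0.80 and -0.70, but at -0.34 in the library labelled SPP1 with the score without Ndrg1, and Loxl1 stood at -0.52 and -0.78. None of 15 measured collagen and matrix genes passed the fold in the same direction in both libraries, and the list's medians were -0.06 and -0.05. Col3a1, the most abundant of them in UMIs, stood at 5284 against 6216 CPM and 4629 against 6992 CPM. Postn stood at 8.84 against 27.5 CPM in the library labelled vector and 19.4 against 25.5 CPM in that labelled SPP1. The 14 genes for folding in the endoplasmic reticulum had medians of 0.04 and -0.03, none past the fold in both libraries. Hspa5, the main chaperone there, stood at 0.15 and 0.10.

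All 15 measured nuclear-encoded respiratory chain genes had negative log2 ratios in both libraries, at medians of -0.23 and -0.25. Over all 10106 measured genes the medians were -0.04 and -0.04, so in each library more genes were negative than positive. Counts of signs here and below stand without the share of all genes with that sign in both libraries. Of the 15 genes only Ndufa4 passed the fold, at 129 against 198 CPM and 112 against 188 CPM. Ndufa4 is a subunit now assigned to cytochrome c oxidase. It was under the fold in both libraries, at -0.41 and -0.41, with the score without Ndrg1. Of 8 measured genes of the mitochondrial genome 6 were negative in both libraries, with mt-Cytb at -0.54 and -0.44, whereas mt-Co1 stood at 0.13 and 0.18. The gate limits mitochondrial UMIs, so these levels are bounded by it, though the limit of 15% lies well above the medians of 1.52% to 1.71%.

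Of 14 genes for sterol and fatty acid synthesis 12 had negative log2 ratios in both libraries, at medians of -0.55 and -0.27, and Hmgcs1, which makes the precursor of mevalonate, passed the fold at 83.8 against 163 CPM and 74.9 against 115 CPM. In the library labelled SPP1 Hmgcs1 was under the fold in 7 of the alternatives, down to -0.33 with the score from thinned cells. The desaturases Scd1 and Scd2 went the other way, at 0.36 and 0.53 and at 0.52 and 0.67. Both desaturases and the early sterol enzymes are controlled by SREBP factors.

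Targets of ATF4, the factor of the amino acid stress response, had medians of 0.31 and 0.41 over 17 genes. Vldlr, a lipoprotein receptor, stood at 98.6 against 53.2 CPM and 79.2 against 27.8 CPM, and Trib3, a pseudokinase, at 20.3 against 12.7 CPM and 20.9 against 9.04 CPM. These were the 2 genes past the fold in both libraries, and Trib3 in the library labelled vector was under it, at 0.47, without Ero1a in the score. Atf4 itself had log2 ratios of 0.31 and 0.41, and the serine synthesis genes Phgdh and Psat1 stood at -0.32 and 0.01 and at -0.24 and 0.21.

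All 14 G2/M genes had negative log2 ratios in both libraries, at medians of -0.63 and -0.48, and 4 passed the fold in both: Ccnb1 and Ccnb2, the mitotic cyclins, Cdc20 and Plk1. Ccnb1 stood at 37.1 against 68.5 CPM and 33.2 against 60.1 CPM. Mki67, the proliferation antigen, stood at 145 against 225 CPM in the library labelled vector and 188 against 212 CPM in that labelled SPP1. After thinning to 3000 UMIs, 19.4% of hypoxia-high and 27.5% of other cells had a Mki67 UMI in the first library and 23.2% and 26.2% in the second (32.3%, 46.3%, 38.5% and 43.7% before thinning). Leukocytes outside the gate, which also divide, had 18.1% and 16.2% after thinning. The S phase list of 16 genes had medians of -0.64 and -0.25, and Ung and Gins2 passed the fold in both libraries. None of these 6 proliferation calls held under every alternative. In the library labelled SPP1, the score without Ndrg1 gave -0.32 for Ccnb1, -0.20 for Ccnb2, -0.29 for Cdc20, -0.51 for Plk1 and -0.49 for Gins2, and the score from thinned cells -0.36 for Ung. Cdkn1a, the inhibitor p21, was the only one of 10 measured inhibitors and p53 targets past the fold, at 171 against 104 CPM and 172 against 93.4 CPM, and at log2 0.57 in the library labelled vector with the score without Ndrg1.

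The lowest genes outside the rule held other proliferation genes and some that mark subsets of the tumour cells. Pimreg, a mitotic regulator, stood at 46.2 against 80.9 CPM and 38.6 against 76.4 CPM, and Hmgb3, a chromatin protein, at 55.5 against 99.4 CPM and 58.6 against 103 CPM. Nudt1 and Ung, which protect and repair DNA, had log2 ratios of -0.84 and -0.82 and of -1.11 and -0.83. Magea9, a cancer-testis gene, had no UMI in hypoxia-high cells of the library labelled vector and 3 in its other cells, while in that labelled SPP1 it stood at 6.02 against 22.2 CPM. Palld, Lum, Cd302, Snn, Gap43 and Cdh5 were under 10 CPM in hypoxia-high cells of both libraries, with 10 to 60 UMIs each. Of these Palld alone stayed past the fold in both libraries under every alternative. Nudt1 was under it at -0.41 in the library labelled vector with the score without Ndrg1.

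Heat shock genes had medians of opposite sign, 0.28 in the library labelled vector and -0.16 in that labelled SPP1, with none of 8 past the fold in both. None of 9 autophagy and lysosome genes was past the fold in both libraries, nor was any of 4 measured lipid droplet genes, 9 identity genes or 6 osteopontin and receptor genes. Hmox1 was the only one of 7 iron genes past it. Among 15 ligands that act on immune cells Il6, a cytokine, was past it, at 20.7 against 11.3 CPM and 27.5 against 8.71 CPM, with 39.0% and 33.5% of its UMIs in 3 cells. With Egln3 left out of the score Il6 stood at log2 0.32 in the library labelled vector. Lgals1, the secreted lectin galectin 1, stood at 2872 against 4239 CPM and 3041 against 4276 CPM. Markers of endothelial cells summed to 5.80 and 6.82 CPM and those of fibroblasts, some of which the tumour line also expresses, to 861 and 886 CPM, against 881 and 1166 CPM in other gated cells.

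**Figure D3:**
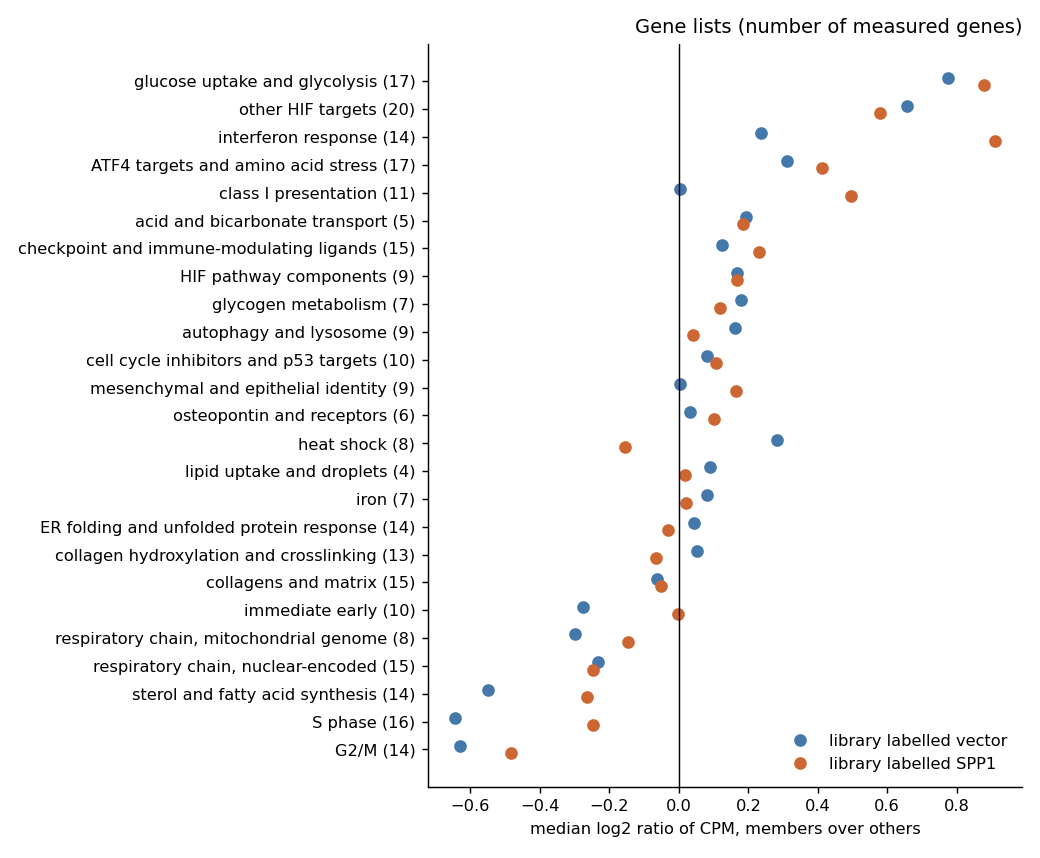
Median log2 ratio of CPM, hypoxia-high over other gated cells, for each gene list (number of measured genes in brackets) and library. Glycolysis (0.78 and 0.88) and other HIF targets (0.66 and 0.58) lie far to the right in both libraries and G2/M (-0.63 and -0.48) to the left, and the interferon list stands at 0.24 in the library labelled vector and 0.91 in that labelled SPP1.

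A panel that shares no gene with the rule gave a second reading of the same cells. The 37 measured genes of the glycolysis and other HIF lists made up a median of 91.4 UMIs per 10000 in hypoxia-high cells and 53.9 in other cells of the library labelled vector, with quartiles of 65.9 to 122 and 41.1 to 69.8. In the library labelled SPP1 the medians were 94.0 and 52.4. The ranges overlapped widely, from 13.8 to 288 in hypoxia-high and 9.61 to 187 in other cells of the first library. Of the hypoxia-high cells 599 (43.2%) were also in the panel's own top 7%, against 4.27% of other gated cells. Across cells thinned to 3000 UMIs the rule's genes and the panel had a Spearman correlation of 0.29 and 0.23 and a Pearson correlation of 0.43 and 0.39 (9605 and 10191 cells, which share depth and library). The panel's lists were chosen with results of these cells known.

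Levels over the whole score showed that the threshold split a gradient. Gated cells were ranked by the score and divided into 6 bins, 3 below the threshold and 3 above it, the last of which was the top 1%. The summed level of the glycolysis list was 2794 CPM in the lowest bin, 3969 CPM in the bin just under the threshold and 8471 CPM in the top 1% of the library labelled vector, and 2783, 3903 and 7964 CPM in that labelled SPP1. Bnip3 went from 79.9 to 1058 CPM and from 88.2 to 929.9 CPM. Mt1 went from 1209 to 7622 CPM and from 1315 to 9210 CPM. Each of these was higher in every next bin, in both libraries. G2/M genes were highest in the lowest bin, at 2613 and 2250 CPM, and lowest in the top 1%, at 1297 and 1081 CPM, but not lower in every next bin, since the bin before the top 1% stood above the bin before it. Collagens and matrix stood at 12490 CPM in the lowest bin and 9560 CPM in the top 1% of the first library and at 13432 and 8398 CPM in the second. The top 1% held 109 and 88 cells.

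**Figure D4:**
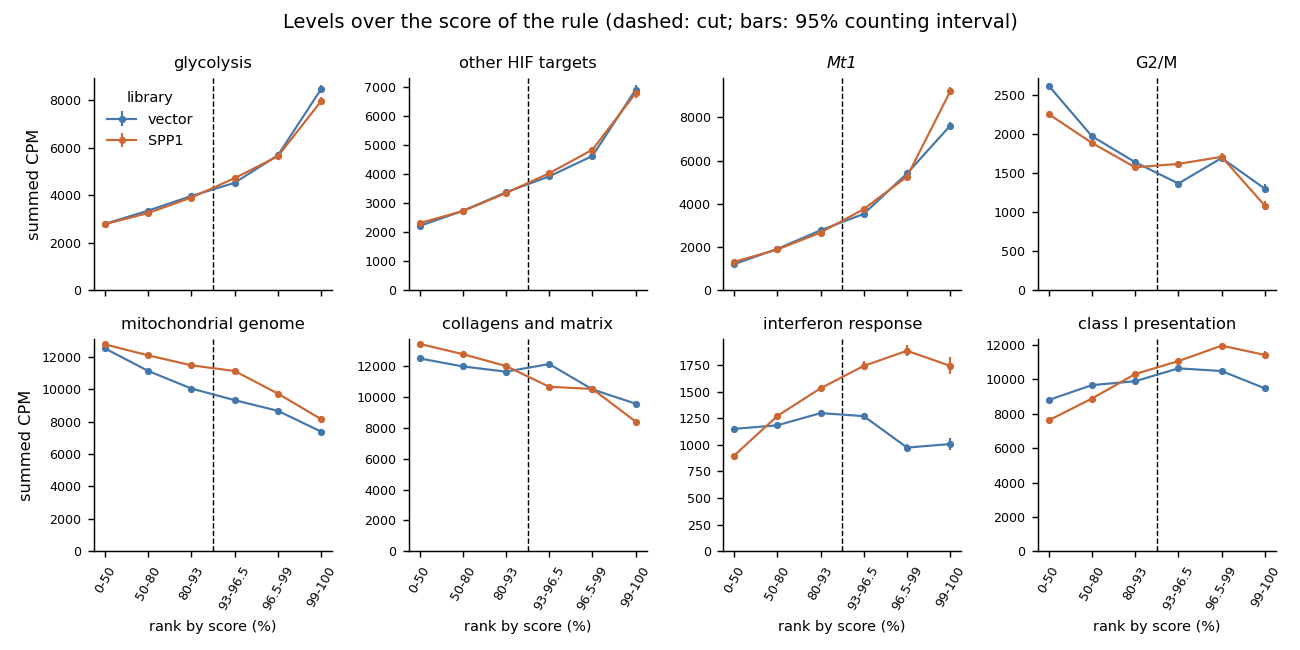
Summed CPM of 7 gene lists and CPM of Mt1 in 6 bins of the rule's score (rank among gated cells, %), for each library, with 95% counting intervals (the interval is often smaller than the point). The dashed line is the threshold. Glycolysis, other HIF targets and Mt1 run together in the 2 libraries and are higher in each next bin, while the interferon list goes from 1149 CPM through 1297 CPM just under the threshold to 1007 CPM labelled vector, and from 898 through 1530 to 1741 CPM labelled SPP1.

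The library labelled SPP1 held fewer hypoxia-high cells. They made up 8.44% of gated cells (7.89 to 9.02%) labelled vector and 5.63% (5.19 to 6.10%) of those labelled SPP1, a log2 ratio of -0.58 (-0.73 to -0.44). The panel that shares no gene with the rule gave 8.02% (7.48 to 8.58%) and 6.03% (5.58 to 6.51%), a log2 ratio of -0.41 (-0.56 to -0.26). Group, tumour and library cannot be told apart with 1 library each.

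In the library labelled SPP1 the share of hypoxia-high cells differed between 3 subsets of tumour cells and the rest. The subsets with Magea9 or Pcdh9 also differed in size between the libraries. Cells with a UMI of Magea9 were 1368 of the gated cells labelled SPP1 and 3 of those labelled vector, and 2.19% of the former were hypoxia-high. Without them the shares were 8.45% and 6.17%. Cells with a UMI of Pcdh9, a protocadherin, were 2712 and 750 gated cells, and 3.39% and 6.27% of them were hypoxia-high. Outside them the shares were 8.63% and 6.44%. Fbxl7, an F-box protein gene, went the other way: of 351 gated cells labelled SPP1 with at least 2 of its UMIs 25.6% (21.2 to 30.5%) were hypoxia-high, and of 361 labelled vector 10.2% (7.32 to 13.8%). Such cells made up 15.7% of hypoxia-high cells and 2.71% of other cells labelled SPP1, and 4.56% and 3.68% of those labelled vector. These 3 genes were chosen after values had been seen, and their part in the difference was not tested beyond these values.

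Hypoxia-high cells of both libraries were cut at the same score, and their median scores were 12.8 and 12.8. Levels of genes that follow the score were therefore partly matched by the choice of cells. Within these cells the hypoxia programme differed little between the libraries. The median log2 ratio of SPP1 over vector was -0.01 over glycolysis and 0.05 over other HIF targets, against -0.04 and 0.00 in other gated cells. In hypoxia-high cells it was -0.01 over all 8601 genes measured there (at least 10 CPM as the mean of the 2 libraries). No gene of those 2 lists passed 1.5-fold in hypoxia-high cells. Vegfa stood at 0.14 (0.08 to 0.20), Bnip3 at -0.22 (-0.28 to -0.16) and Slc2a1 at -0.28 (-0.40 to -0.17). Spp1 stood at 219 CPM labelled vector and 208 CPM labelled SPP1, log2 -0.08 (-0.17 to 0.02), and in both libraries it was higher in hypoxia-high than in other cells, at log2 0.57 and 0.67. The share of cells with a Spp1 UMI differed less: after thinning it was 25.5% against 21.9% labelled vector and 26.0% against 21.0% labelled SPP1. In hypoxia-high cells 3 cells held 12.5% and 15.9% of the UMIs of Spp1. Cd44, its receptor, stood at 1255 and 1219 CPM in hypoxia-high and 1273 and 1244 CPM in other cells, and none of 6 measured genes for osteopontin and its receptors passed the fold.

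Over all genes 142 (1.65%) were at least 1.5-fold higher in hypoxia-high cells labelled SPP1 and 31 (0.36%) were lower, against 0.825% and 0.523% in other gated cells. Interferon genes were among the higher ones. Of 14 measured genes of the interferon list 8 were past the fold within hypoxia-high cells, with a median log2 ratio of 0.77, against 0.01 in other gated cells. Isg15, a ubiquitin-like protein, stood at 32.9 CPM labelled vector and 75.3 CPM labelled SPP1 in hypoxia-high cells, and at 25.9 and 35.1 CPM in other cells. Cxcl9, a chemokine for T cells, stood at 28.6 and 88.5 CPM in hypoxia-high cells and at 36.4 and 46.9 CPM in other cells. Rsad2, the antiviral enzyme viperin, stood at 12.6 and 35.7 CPM, and Ifit1, an RNA-binding effector, at 31.5 and 66.7 CPM. With Ero1a left out of the score the Ifit1 ratio was log2 0.47, against 1.08. With the 5-gene score all 4 were more than 2-fold higher in hypoxia-high cells labelled SPP1.

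For each of the 14 interferon genes the interval of the ratio in hypoxia-high cells lay above that in other cells, and the same held for the 11 class I genes, where 11.2% of 8599 genes did so and 7.73% had it below. Class I genes, which present peptides to T cells, had medians of 0.25 in hypoxia-high and -0.18 in other cells. Psmb9, a subunit of the immunoproteasome, stood at 79.6 and 144 CPM in hypoxia-high cells and at 87.6 and 83.1 CPM in other cells. Tap1, a peptide transporter, stood at 39.7 and 61.2 CPM and at 38.0 and 32.7 CPM. Tap1 was under the fold in 5 alternatives, down to log2 0.53. Cd274, which encodes PD-L1, stood at 21.3 and 33.7 CPM in hypoxia-high cells, log2 0.66 (0.40 to 0.93), and at 19.5 and 17.2 CPM in other cells, log2 -0.18. The Cd274 ratio was 0.18 with the score without Ndrg1, under the fold. Such separation was not limited to immune genes. It held for 10 of 10 immediate early genes (medians 0.28 in hypoxia-high and 0.08 in other cells), 12 of 14 S phase genes (0.26 and -0.07), 11 of 15 ligands that act on immune cells (0.20 and -0.08), 10 of 17 ATF4 targets (0.00 and -0.21), 9 of 14 sterol and fatty acid genes (-0.17 and -0.42), 7 of 14 G2/M genes (0.05 and -0.14) and 6 of 8 mitochondrial genome genes (0.19 and 0.07). Heat shock genes went the other way, with 7 of 8 below (-0.03 and 0.25), as did 6 of 14 genes for folding in the endoplasmic reticulum. Collagens and matrix had 6 of 15 above and 6 below.

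Read within each library, the interferon genes had a median log2 ratio of hypoxia-high over other cells of 0.24 labelled vector and 0.91 labelled SPP1, and class I genes of 0.00 and 0.49. In the library labelled vector the median and the sum went opposite ways: the summed interferon list was 1128 CPM in hypoxia-high and 1183 CPM in other cells, with Cxcl10, its most abundant member there, at 218 against 339 CPM. Labelled SPP1 the sums were 1789 and 1087 CPM. Of the 14 genes 8 were positive in both libraries. The difference between libraries did not begin at the threshold. In the bin just under it the interferon list stood at 1297 CPM labelled vector and 1530 CPM labelled SPP1, and class I at 9892 and 10313 CPM. In the lowest bin the order was reversed, at 1149 and 898 CPM and at 8802 and 7616 CPM. The interferon difference between libraries was smaller when the cells were chosen without Ndrg1 (median 0.41) or as the top 10% (0.50). In hypoxia-high cells with no Fbxl7 UMI the summed interferon list stood at 1136 and 1791 CPM labelled vector and SPP1. In other gated cells with none it stood at 1189 and 1039 CPM. With at least 2 Fbxl7 UMIs it stood at 1031 and 1555 CPM in hypoxia-high cells and 1152 and 2065 CPM in other cells. Among cells that were not hypoxia-high, the Fbxl7 subset thus also stood higher labelled SPP1. Fbxl7 is scarce, so a cell with none of its UMIs may still belong to that subset, whose part was not tested. A few cells carried much of some genes: 3 cells held 35.3% and 27.3% of the Rsad2 UMIs and 23.3% and 20.1% of the Cxcl9 UMIs. With each cell weighted equally the list's median was 0.74.

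Beside these values stand the markers of immune cells. The 10 macrophage markers summed to 60.6 and 76.3 CPM in hypoxia-high cells, 49.8 and 71.2 CPM in other gated cells, and 12304 and 15317 CPM in leukocytes outside the gate. The 7 T and NK markers summed to 1.33 and 2.01 CPM, with Gzma at 0. The 5 dendritic markers summed to 185 and 442 CPM against 173 and 203 CPM, carried by the class II genes Cd74 and H2-Ab1, with Xcr1 and Ccr7 at 0. Cd74 stood at 120 and 308 CPM in hypoxia-high cells and 107 and 134 CPM in other cells. After thinning, 21.0% and 36.8% of hypoxia-high cells and 20.8% and 20.8% of other cells had a Cd74 UMI. Without cells with at least 3 UMIs of macrophage, T and NK or endothelial markers, or over 40000 UMIs, the interferon median was 0.84.

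**Figure D5:**
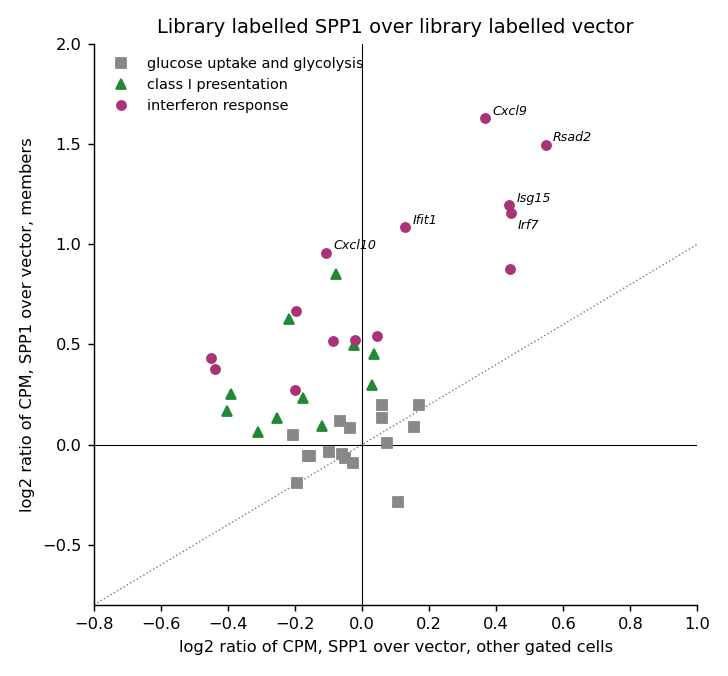
Log2 ratio of CPM, library labelled SPP1 over library labelled vector, in hypoxia-high cells (vertical) against other gated cells (horizontal), 1 point per gene of 3 lists. The dotted line marks equal ratios. All 14 interferon and 11 class I genes lie above the line, and glycolysis genes lie around 0 on both axes.

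By the rule for named genes, 31 genes (0.36%) had an interval wholly past 1.5-fold upwards in hypoxia-high cells labelled SPP1 and 0 downwards. The first 8 were Cxcl9 and Rsad2, Cd74, the invariant chain of class II molecules, Fbxl7, Igfbp7, Rhox5, Ms4a4d and Selenop. Rhox5, a reproductive homeobox gene, stood at 24.0 CPM labelled vector and 71.5 CPM labelled SPP1 in hypoxia-high cells, and at 27.7 and 34.1 CPM in other cells. Igfbp7, a secreted binding protein, stood at 13.3 and 40.8 CPM, but 3 cells held 38.7% of its UMIs labelled SPP1. Fbxl7 stood at 22.2 and 57.8 CPM in hypoxia-high cells and at 14.0 and 11.98 CPM in other cells, so the order of the libraries turned around between the 2 sets. Selenop, a selenium carrier, stood at 6.94 and 16.1 CPM, and at 8.20 and 14.7 CPM in other cells.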

How the data were processed

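Values in the deposited matrices are UMI counts, whole numbers per gene and barcode, not normalized by the authors. Tools and build were, per the submitters' processing notes, Cell Ranger 2.1.1 and GRCm39. Annotation release and doublet removal remain not given in the sources used here. Both matrices list 56941 genes, with 14317 barcodes labelled vector and 14029 labelled SPP1, at a median of 10277 and 10218 UMIs. From these counts a cell gate and a rank were computed as described above, and UMIs were summed per cell set and library and given as CPM. No doublet caller was run and no cell was removed as a doublet; an alternative left out likely doublets. Log2 ratios have exact conditional binomial intervals, CPM exact Poisson intervals, shares exact Clopper-Pearson intervals and share ratios log intervals, all at 95%. The self-test checked the calculation of the ratio and its interval on data simulated with counting error only. It did not cover differences between cells. Leukocytes were barcodes with at least 2 Ptprc UMIs, no UMI of the 4 gate genes, and the same depth and mitochondrial limits.

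Named were the 5 rule genes, the 20 highest and 12 lowest genes by the ratio that both libraries reach, up to 8 each way between the libraries by interval, up to 6 per list, and Hif1a, Vegfa, Spp1, Cd44, Cd274 and Mki67. Mitochondrial, ribosomal, haemoglobin, clone-named and sex-linked marker genes were left out of the ranks. Members and gene lists were chosen with earlier results of these data known. Further alternatives changed the cut, the score, the gate, the filter on low genes, the fold and the scaling. Python 3.11.15, numpy 2.4.6, scipy 1.17.1 and pandas 2.3.3 were used.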

Additional observations from a re-analysis of the deposited data

Results flagged for a closer look

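Cxcl10, a chemokine induced by interferon, was lower in hypoxia-high than in other gated cells of the library labelled vector (log2 -0.636) and higher in the library labelled SPP1 (log2 0.4304). Tnc, the matrix glycoprotein tenascin C, likewise had opposite directions, at -1.104 and 0.7138, on levels of 8.36 to 18.4 CPM. Each pair was picked out because the 2 libraries disagreed in sign, and the difference was not tested because each group was 1 library.

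The rule's score also reached its threshold in cells outside the gate. Of 419 leukocytes labelled vector 10.74% (45 cells) and of 265 labelled SPP1 10.57% (28 cells) were at or above it. Over both libraries these leukocytes stood at 669 CPM of Ndrg1 and 689 CPM of Ero1a against 106 and 127 CPM in leukocytes below it. Bnip3, which did not choose them, stood at 557 against 212 CPM, Vegfa at 866 against 347 CPM and Arg1, an arginase of myeloid cells, at 2479 against 1196 CPM.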

How the results depend on the processing

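No paired analysis was possible because each group was 1 library. Under the alternatives, gene ratios were followed only for a chosen set, mostly named genes. None of these ratios, and no list median, that was past 1.5-fold changed direction. Other genes past the fold were counted but not followed singly, so this does not cover them. Leaving out cells with Fbxl7 or Pcdh9 or barcodes found in both libraries, and counting genes under other cuts and scores, were chosen after seeing the data. The log2 share ratio moved to -0.78 without cells with a Fbxl7 UMI and to -0.42 without cells with a Pcdh9 UMI, and lay between these elsewhere. The glycolysis median was 0.87 and 0.96 in the top 5%, and 0.71 in the library labelled SPP1 with the score from thinned cells. The interferon median between libraries was 0.50 in the top 10% and 0.41 with the score without Ndrg1. Genes lower in hypoxia-high cells (77) numbered 123 in the top 5%, 50 in the top 10%, 42 without Ndrg1 and 43 with the thinned score. Genes lower labelled SPP1 within them (31) numbered 60 in the top 5%, 19 in the top 10% and 47 with cells weighted equally. The 4 counts (93 and 77 between cell sets, 142 and 31 between libraries) were 54, 38, 69 and 15 for genes of at least 20 CPM, 701, 1254, 1004 and 368 for genes of at least 20 UMIs in all, and 20, 3, 26 and 0 at 2-fold. Of the 142 followed gene ratios past 1.5-fold between cell sets 51 were under it in some alternative. Of the 13 followed between libraries 3 were (Cd274, Ifit1 and Tap1). Depth limits the scarce genes: Car9 had 306 and 172 UMIs in hypoxia-high cells, and after thinning its share of other gated cells, 0.955% and 0.78%, did not exceed that of leukocytes, 1.43% and 1.13%.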
